A study of Mus musculus with 20 samples.

Results

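Snai1, Snai2, Twist1, Twist2, Zeb1, Zeb2 and Prrx1 encode transcription factors of the epithelial-to-mesenchymal transition (EMT). These 7 genes, of 21938 protein-coding genes in the GENCODE M21 annotation, were taken as a list of names, and no measured value enters the rule that defines it. The members were nevertheless chosen with earlier results of these data known. For each gene, H3K27me3 peaks within 5 kb of an annotated transcription start site (TSS) were taken from 10 lists. KLF4 peaks and JMJD3 positions were taken from the gene and 50 kb on each side in 2 lists each.

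The study followed mouse embryonic fibroblasts (MEFs) during reprogramming with OCT4, SOX2, KLF4 and c-MYC (OSKM), and the role of the H3K27me3 demethylase JMJD3 in it. For these genes the comparisons below ask whether H3K27me3 was called at the start by day 10 and whether that differed with JMJD3. WT MEFs (Jmjd3+/+, strain labelled C57BL/6J-OG2) and KO MEFs (Jmjd3-/-, strain labelled C57Bl6J) were profiled for H3K27me3 uninfected at day 0, and at days 5 and 10 of OSKM with either a FLAG vector control or exogenous JMJD3. KLF4 was profiled at day 5 in WT OSKM cells with FLAG or JMJD3, and FLAG-tagged JMJD3 at day 5 in WT cells with OSKM or with OSlowKM, in which the level of KLF4 was low. Each group was 1 library, so no difference below has a test or a replicate error. All infected cells received medium with vitamin C, a cofactor that enhances this class of demethylases, and MEFs of early passage were used. The infection protocol named retroviral vectors whereas the sample labels named lentiviral ones. The study also used littermate WT and KO MEFs, and whether these libraries came from littermates is not given in the labels, so by the labels strain and genotype moved together and cannot be told apart, and peak positions gave no check of the knockout itself.

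H3K27me3 is laid down by Polycomb repressive complex 2, marks silent developmental genes, and is removed by JMJD3 (Kdm6b) and UTX. The EMT factors repress epithelial genes such as E-cadherin and maintain mesenchymal identity. Fibroblasts express several of them, and reprogramming passes through the reverse, mesenchymal-to-epithelial transition, in which KLF4 switches on epithelial genes. SNAI1 and SNAI2 are zinc-finger repressors that bind E-boxes. TWIST1 and TWIST2 are basic helix-loop-helix factors, ZEB1 and ZEB2 are zinc-finger homeodomain repressors, and PRRX1 is a paired-related homeodomain factor of limb and craniofacial mesenchyme.

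The sites below are the KLF4 peaks and the JMJD3 window inside or beside these genes to which the binding results refer. They were read from GRCm38.p6 (mm10, RefSeq) on the strand of the gene. Capitals mark matches on either strand to a SNAI and ZEB E-box (CAGGTG) in Snai1, to a KLF word (GGGNGTGG) in Zeb2 and Twist1, and to an AP-1 word (TGANTCA) in Twist2. The Prrx1 site held none of these words and no SOX word (CATTGT).
Snai1 intronic site, chr2:167540707-167540985, plus strand: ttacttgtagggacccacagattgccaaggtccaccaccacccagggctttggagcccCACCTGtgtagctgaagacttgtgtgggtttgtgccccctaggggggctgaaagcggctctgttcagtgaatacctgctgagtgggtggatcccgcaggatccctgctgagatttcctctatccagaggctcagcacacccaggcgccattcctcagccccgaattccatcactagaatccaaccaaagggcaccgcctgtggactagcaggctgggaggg
Prrx1 intronic site, chr1:163308614-163308813, minus strand: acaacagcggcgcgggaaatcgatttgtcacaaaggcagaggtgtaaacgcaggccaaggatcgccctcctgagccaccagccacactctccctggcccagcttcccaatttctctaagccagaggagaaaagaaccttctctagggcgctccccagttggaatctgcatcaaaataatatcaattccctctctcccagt
Zeb2 intronic site, chr2:45088498-45088693, minus strand: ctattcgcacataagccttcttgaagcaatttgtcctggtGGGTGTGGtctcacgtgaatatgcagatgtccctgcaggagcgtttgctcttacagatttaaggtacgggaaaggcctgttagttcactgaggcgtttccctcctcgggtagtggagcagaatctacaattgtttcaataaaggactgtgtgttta
Twist1 downstream site, chr12:33964151-33964381, plus strand: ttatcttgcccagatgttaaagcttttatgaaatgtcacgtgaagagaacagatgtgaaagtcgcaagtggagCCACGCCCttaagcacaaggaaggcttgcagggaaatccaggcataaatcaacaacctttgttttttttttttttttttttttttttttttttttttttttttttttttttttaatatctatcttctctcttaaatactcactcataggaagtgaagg
Twist2 intronic site, chr1:91816665-91816864, plus strand: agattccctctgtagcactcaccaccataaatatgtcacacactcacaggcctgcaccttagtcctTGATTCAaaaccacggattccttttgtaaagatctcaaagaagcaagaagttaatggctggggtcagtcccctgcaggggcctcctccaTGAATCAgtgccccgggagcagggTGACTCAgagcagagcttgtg

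The 250 bases before the Twist1 and Twist2 start sites (RefSeq, GRCm38.p6) are shown because the H3K27me3 peaks and JMJD3 positions that follow lie on or beside them. Capitals mark CG dinucleotides, of which there were 18 in Twist1 and 23 in Twist2.
Twist1 upstream, chr12:33957421-33957670, plus strand: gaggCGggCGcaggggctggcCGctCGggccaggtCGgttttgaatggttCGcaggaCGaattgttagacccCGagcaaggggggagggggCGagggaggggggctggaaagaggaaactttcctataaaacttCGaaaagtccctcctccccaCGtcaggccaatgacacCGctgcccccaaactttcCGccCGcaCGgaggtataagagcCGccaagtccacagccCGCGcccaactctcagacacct
Twist2 upstream, chr1:91801211-91801460, plus strand: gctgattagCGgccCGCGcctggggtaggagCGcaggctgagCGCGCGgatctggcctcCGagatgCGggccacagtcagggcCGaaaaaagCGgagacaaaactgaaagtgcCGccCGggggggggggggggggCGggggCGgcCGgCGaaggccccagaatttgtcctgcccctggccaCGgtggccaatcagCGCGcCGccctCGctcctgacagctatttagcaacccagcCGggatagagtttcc

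The H3K27me3 lists held 3045 to 6954 peaks of 1000 bp, each with a peak score whose scale the study does not give. The scores reached 200 in every list. Only a peak's rank within its own list is therefore used. The KLF4 lists held 10655 (FLAG) and 14391 (JMJD3) peaks, and the JMJD3 lists 14067 (OSKM) and 2284 (OSlowKM) positions of 1 bp. A list with more peaks can reach more genes, so each count of the 7 genes stands beside the share of all protein-coding genes that met the same rule.

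In fibroblasts no H3K27me3 peak was called within 5 kb of a start site of any of the 7 genes. The count was 0 of 7 in WT MEFs, where 14.6% of all protein-coding genes had a peak within 5 kb, and 0 of 7 in KO MEFs, where 10.3% had one. With 7 genes, a count of 0 is close to either share. At day 5, WT cells with FLAG had peaks at Snai1 and Twist2 (2 of 7, all genes 14.7%), whereas the count was 0 of 7 in WT cells with JMJD3 (11.0%), in KO cells with FLAG (13.7%) and in KO cells with JMJD3 (13.0%). At day 10, WT cells with FLAG had 0 of 7 (12.1%) and WT cells with JMJD3 had 1 of 7, Twist2 (8.26%). KO cells at day 10 had 3 of 7 with FLAG, namely Snai1, Twist1 and Twist2 (12.8%), and 2 of 7 with JMJD3, namely Twist1 and Twist2 (11.7%). With the better-scoring 50% of each list these counts became 1 in WT cells at day 5 with FLAG, 0 in WT cells at day 10 with JMJD3, and 0 with FLAG and 1 with JMJD3 in KO cells at day 10. With all lists at 3045 peaks, the FLAG counts became 1 in WT cells at day 5 and 0 in KO cells at day 10. Snai2, Zeb1, Zeb2 and Prrx1 had no peak within 5 kb in any of the 10 lists, as had 77.6% of all protein-coding genes. In bulk chromatin, fewer cells with the mark and less of the mark per cell cannot be told apart.

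**Figure D1:**
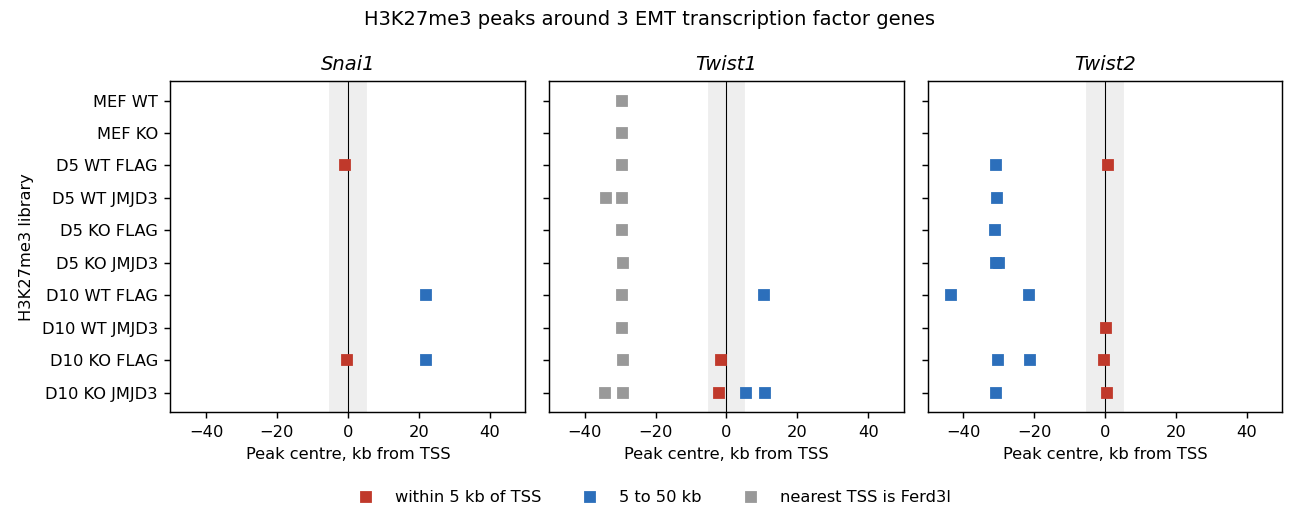
H3K27me3 peak centres within 50 kb of the start sites of Snai1, Twist1 and Twist2 (x axis, kb from the nearest TSS) in the 10 libraries (y axis), with the 5 kb window shaded, peaks inside it in red, other peaks in blue and peaks nearest to the neighbouring gene Ferd3l in grey. Both MEF rows hold only the Ferd3l peak, and the D10 KO FLAG row holds a red square in all 3 genes.

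Snai1 (chr2:167538195-167542814, plus strand), the factor that initiates EMT by repressing E-cadherin, had a peak at its start in 2 of 10 lists. In WT cells at day 5 with FLAG the peak lay at chr2:167536868-167537867, its centre 827 bp upstream of the TSS, with a score of 7.87 and rank 5078 of 6428. In KO cells at day 10 with FLAG it lay at chr2:167537526-167538525, with a score of 6.66 and rank 5262 of 5376. That score was close to the lowest in its list, 6.60. Both peaks stood in the weaker part of their lists, at 79.0% and 97.9% of the rank order.

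A second position lay 22 kb downstream of the Snai1 start, with a peak in both day 10 FLAG libraries and no others. It ranked 3796 of 5131 in WT and 3608 of 5376 in KO. Its edges lay 1425 to 1562 bp from the midpoints of a KLF4 peak 24 kb downstream of the start that was called in both KLF4 libraries, with midpoints 46 bp apart. In WT cells with FLAG the mark near Snai1 was thus called at the start at day 5 and only at this downstream position at day 10. Outside these positions no H3K27me3 peak lay within 50 kb of Snai1 in any list.

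Calls for KLF4 and JMJD3, from separate libraries, coincided in the intron of Snai1 whose sequence is given above. A KLF4 peak of 279 bp was called there, 2651 bp into the gene, in cells with exogenous JMJD3 and not in the FLAG cells. Its midpoint was the same base as a JMJD3 position of OSKM cells. The E-box in this peak, a word that SNAI1 itself recognises, was shared with 12.9% of KLF4 windows of 200 bp in the same list. In OSlowKM cells the only JMJD3 position near Snai1 lay 14888 bp downstream of the start, 12237 bp from the OSKM one. The remaining KLF4 peaks within 50 kb, 1 with FLAG and 3 with JMJD3, lay within 251 bp of the start sites of the neighbouring genes Rnf114 and Spata2.

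Snai2 (chr16:14705852-14709385, plus strand), which encodes the neural crest factor SLUG, had the least in these lists. Its nearest H3K27me3 peak lay 211 kb from the TSS in KO cells at day 5 with JMJD3 and 377 to 2572 kb away in the other 9 lists. The only KLF4 peak within 50 kb, 183 bp wide and 20122 bp upstream, was called in cells with JMJD3 and not with FLAG. No JMJD3 position lay within 50 kb, which made Snai2 the only one of the 7 genes without one in OSKM cells.

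Twist1 (chr12:33957671-33959829, plus strand), a factor of neural crest and cranial mesenchyme, had a peak within 5 kb only in KO cells at day 10. With FLAG it lay at chr12:33955746-33956745, centred 1425 bp upstream, with a score of 8.38 and rank 3713 of 5376. With JMJD3 it lay at chr12:33955196-33956195, centred 1975 bp upstream, with a score of 11.08 and rank 2500 of 4878. The KO cells with JMJD3 had more of the mark called around the gene, with further peaks 5525 and 10975 bp downstream of the start. In WT cells the only peak within 50 kb whose nearest start was that of Twist1 lay 10716 bp downstream, at day 10 with FLAG.

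A peak about 29 kb upstream of Twist1 was present in 10 of 10 lists, MEFs included, with scores from 19.65 to 133.12. It belonged by distance to the neighbouring gene Ferd3l, a neural basic helix-loop-helix gene, and its centre lay 14 to 269 bp from that gene's start. Twist1 and a neighbour with a peak in every list thus lay within 30 kb of each other. No peak was called within 5 kb of the Twist1 start in 8 of the 10 libraries.

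JMJD3 positions lay at the Twist1 start in both JMJD3 libraries. The OSKM position lay 79 bp and the OSlowKM position 53 bp into the first exon, 26 bp apart, and a second OSKM position lay 1081 bp in. Among all OSKM positions, 12.9% had an OSlowKM position within 400 bp. KLF4 had 1 peak near Twist1, the downstream site printed above, 6595 bp from the start. It was called with FLAG and not with JMJD3, and it was the only KLF4 peak of this kind among the 7 genes. The edge of the KO day 10 JMJD3 peak 5525 bp downstream lay 571 bp from its midpoint. The KLF word was found in 35.5% of the KLF4 windows of that list.

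Twist2 (chr1:91801461-91848028, plus strand), which encodes the dermal mesenchyme factor also called Dermo1, was marked most often, in 4 of 10 lists. In WT cells at day 5 with FLAG the peak was at chr1:91801860-91802859, with a score of 15.17 and rank 2875 of 6428. In WT cells at day 10 with JMJD3 it was at chr1:91801340-91802339, with a score of 9.69 and rank 1656 of 3045. In KO cells at day 10 with FLAG it was at chr1:91800654-91801653, with a score of 6.62 and rank 5329 of 5376, again close to the lower end of the list. In KO cells at day 10 with JMJD3 it was at chr1:91801536-91802535, with a score of 24.71 and rank 902 of 4878. The last was the best ranked of the 8 start-site peaks of these genes, in the first 18.5% of its list, and it came from cells that received exogenous JMJD3.

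**Figure D2:**
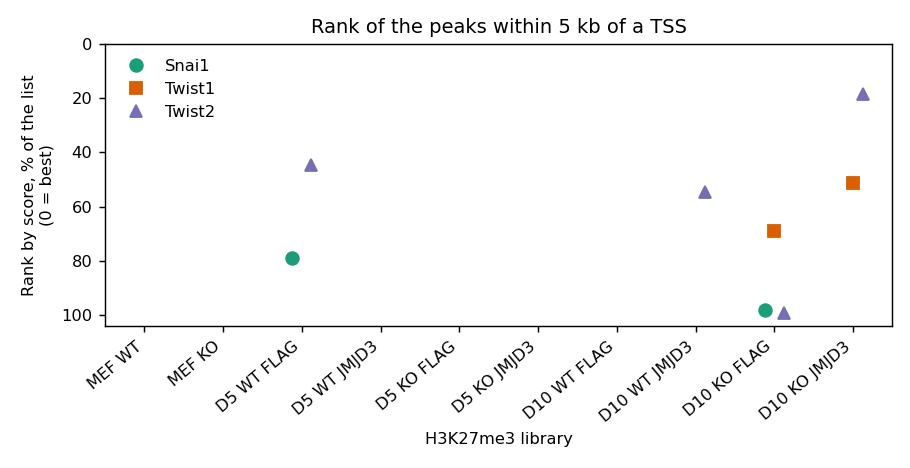
Rank by score (y axis, percent of the list, 0 at the top for the best) of the 8 H3K27me3 peaks within 5 kb of a start site of the 7 genes, in the 10 libraries (x axis). The points run from 18.5% (Twist2, D10 KO JMJD3) to 99.1% (Twist2, D10 KO FLAG), and both KO day 10 libraries hold more points than any WT day 10 library.

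Upstream of Twist2, a second position at about 30 kb was marked in 6 of 10 lists. These were all 4 day 5 libraries and both KO day 10 libraries, and the best peak there stood between 47.7% (KO day 10 with JMJD3) and 77.4% (WT day 5 with JMJD3) of the rank order of its list. Neither MEF library nor either WT day 10 library had it. Another position, 21207 to 21546 bp upstream, was marked in the day 10 FLAG libraries of both genotypes and in no other. At day 10 the WT cells with FLAG also had a peak 43346 bp upstream while the start itself had none.

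No KLF4 peak of either library lay in Twist2 or within 50 kb of it. JMJD3 lay 241 bp from the nearest annotated start in OSKM cells, in the coding exon, and this base was inside the H3K27me3 peaks of WT and KO cells at day 10 with JMJD3. It lay 149 bp from the edge of the WT day 5 FLAG peak and 58 bp from that of the KO day 10 FLAG peak. In OSlowKM cells the closest position was 3337 bp from a start. The intronic site printed above, about 15 kb into the gene, was occupied in both JMJD3 libraries at positions 103 bp apart. It held 3 AP-1 words in the 200 bp around the OSKM position, and at least 3 were found in 0.0995% of the OSKM windows. AP-1 factors such as FOS and JUN are abundant at fibroblast enhancers.

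By closest approach, Zeb1, Zeb2 and Prrx1 lay farther from H3K27me3 than Snai2. Over the 10 lists the nearest peak was 714 to 2586 kb from the Zeb1 start, 552 to 2458 kb from a Zeb2 start and 830 to 2140 kb from a Prrx1 start. The median over all protein-coding genes was 109 to 259 kb, depending on the list. Taking the closest approach in any list, 9.23% of all protein-coding genes stayed farther from the mark than Zeb1, 11.3% farther than Zeb2, 7.96% farther than Prrx1 and 23.0% farther than Snai2. The nearest peak to Zeb2 lay 552 kb (WT) and 553 kb (KO) away in the day 10 FLAG libraries and 2457 kb away in either MEF library. In the day 10 JMJD3 libraries it lay 2458 kb (WT) and 2457 kb (KO) away. At day 5 the distance was 1324 kb in both WT libraries, 1323 kb in KO with FLAG and 2457 kb in KO with JMJD3. All these peaks were far outside the windows used here.

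**Figure D3:**
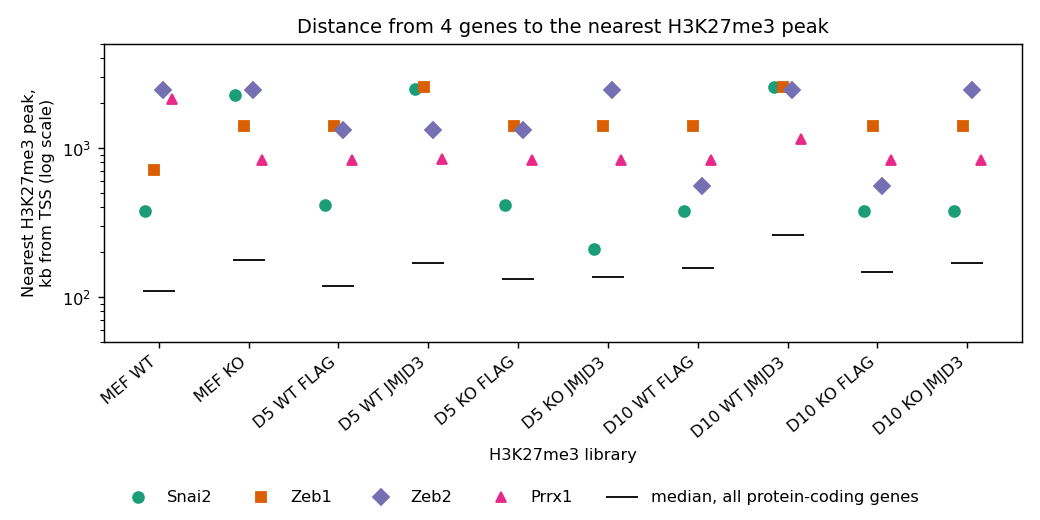
Distance from the nearest start site of Snai2, Zeb1, Zeb2 and Prrx1 to the nearest H3K27me3 peak (y axis, kb, log scale) in the 10 libraries (x axis), with the median over all protein-coding genes as a bar. All 4 genes lie above the bar in every library, at 211 kb or more against medians of 109 to 259 kb.

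Zeb1 lies on chromosome 18 (5591860 to 5775467, plus strand) and had a KLF4 peak in both KLF4 libraries about 228 kb downstream of the TSS, beyond the 3′ end of the gene, at midpoints 84 bp apart. The 200 bp around each midpoint held 2 KLF words. JMJD3 of OSKM cells lay in introns at 102558 and 157357 bp from the start, more than 70 kb short of the KLF4 peak. No JMJD3 position of OSlowKM cells lay in the gene or within 50 kb.

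Zeb2 (chr2:44983632-45117395, minus strand) carried the KLF4 peak printed above in both KLF4 libraries, in an intron 21650 and 21692 bp downstream of the nearest start, at midpoints 42 bp apart. JMJD3 did not sit there. The OSKM positions lay 211 and 784 bp from 2 of its 8 annotated starts and in an intron 85644 bp from the nearest one, and the OSlowKM position lay 79 bp from a start, 705 bp from the nearest OSKM position.

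Prrx1 (chr1:163245119-163313710, minus strand) had a KLF4 peak in the intron shown above, 4954 bp from the nearest start, in cells with JMJD3 and not with FLAG. An OSKM position of JMJD3 lay 103 bp away from its midpoint. Further OSKM positions lay 1488 bp downstream and 13941 bp upstream of the nearest annotated start, and there was none in OSlowKM cells. Prrx1 and Snai1 were thus the only genes of the 7 with a KLF4 peak within 400 bp of a JMJD3 position, and in both the KLF4 peak was absent from the FLAG list. Among all KLF4 peaks of JMJD3 cells, an OSKM JMJD3 position lay within 400 bp of 26.1% of those without a FLAG counterpart within 400 bp and of 36.3% of those with one.

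**Figure D4:**
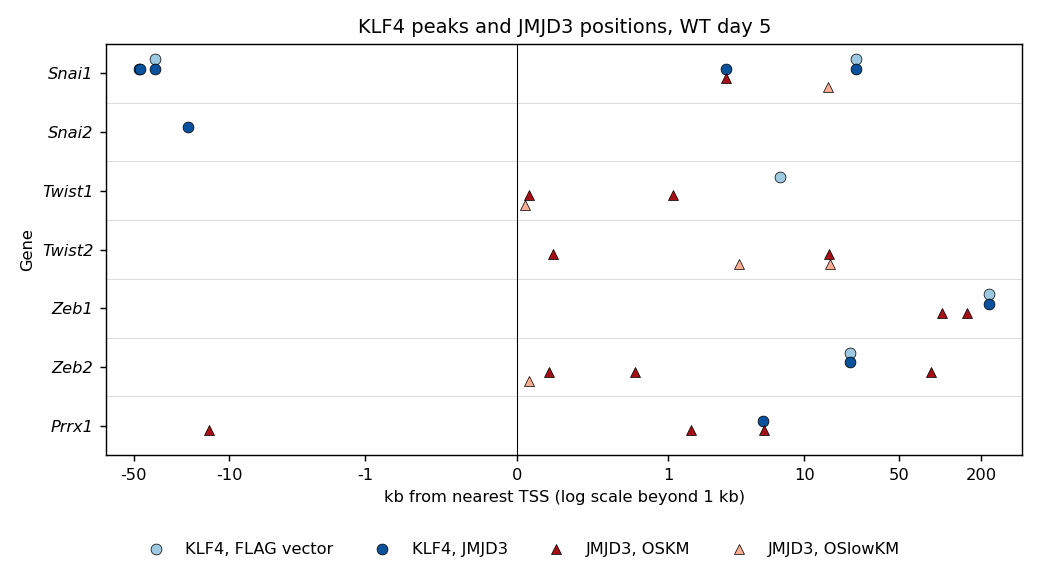
KLF4 peak midpoints (circles) and JMJD3 positions (triangles) in each of the 7 genes and 50 kb on both sides in WT cells at day 5 (x axis, kb from the nearest TSS, log scale beyond 1 kb). KLF4 and JMJD3 marks coincide in Snai1 at 2651 bp and lie 103 bp apart in Prrx1, and Twist2 has triangles only.

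By gene, a KLF4 peak lay in the gene or within 50 kb in 4 of 7 with FLAG (all protein-coding genes 59.5%) and in 5 of 7 with JMJD3 (67.1%). A flank of 10 kb left 2 genes with FLAG and 3 with JMJD3, and the wider 50% of each KLF4 list left 2 in both. For JMJD3 the counts were 6 of 7 with OSKM (55.6%) and 4 of 7 with OSlowKM (14.1%). Within 5 kb of a start, KLF4 was called at 0 of 7 genes with FLAG (27.9%) and at Snai1 and Prrx1 with JMJD3 (37.0%). JMJD3 was called there at 5 of 7 with OSKM (21.0%), all but Snai2 and Zeb1, and at Twist1, Twist2 and Zeb2 with OSlowKM (3.66%). The KLF4 counts were therefore near or below the share of all genes and the JMJD3 counts above it, with no test in 1 library per group. All 3 genes with an H3K27me3 peak at the start in some library, Snai1, Twist1 and Twist2, also had a JMJD3 position within 5 kb of the start. Zeb2 and Prrx1 had such a position too, without an H3K27me3 peak there in any library.

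The start sites of the 7 genes differed in base composition. In the 1000 bp around the most upstream start of each gene, GC content was 72.4% in Twist1, 69.6% in Zeb1, 67.0% in Twist2 and 66.1% in Snai1. It was 54.5% in Snai2, 54.1% in Zeb2 and 47.3% in Prrx1, against a median of 55.2% over all protein-coding genes. By this measure the 3 genes with a start-site peak were among the 4 richest in GC, and Zeb1, also GC-rich, had no such peak. Zeb2, however, has 8 annotated starts. The 200 bp around its JMJD3 positions 211, 784 and 79 bp from a start had GC contents of 80.0%, 72.5% and 71.0%. Its place among the less GC-rich genes thus depended on the start and window taken.

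From fibroblasts to day 10 with FLAG, WT cells gained a start-site peak at 0 of the 7 genes, where 3.35% of all genes without a MEF peak gained one. KO cells gained one at 3 of 7, Snai1, Twist1 and Twist2, against 5.50%. That count was 0 with the better-scoring 50% of each list and 0 with all lists at 3045 peaks. At day 10 with FLAG, 3 of 7 genes had a peak in KO and none in WT cells, against 3.29% of all genes without one in WT, and this difference was likewise 0 under both restrictions. At day 5 with FLAG there were 2 of 7 in WT and 0 of 7 in KO cells, a KO-minus-WT difference of -2 that was -1 under both restrictions. The day 5 and day 10 differences had opposite signs in the full lists and not under these restrictions. In KO cells start-site peaks at these genes were called at day 10 and not before.

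Exogenous JMJD3 was set against FLAG in 4 pairs of libraries. In WT cells at day 5, both genes with a peak, Snai1 and Twist2, were without one in the JMJD3 list, as were 31.8% of all genes with a FLAG peak. In KO cells at day 5 no gene had a peak in either list. In WT cells at day 10, Twist2 had a peak with JMJD3 and not with FLAG (1 of 7), a change seen in 1.30% of all genes without a FLAG peak. In KO cells at day 10, Snai1 was without its peak in the JMJD3 list (1 of 3), as were 25.1% of all genes with a FLAG peak, whereas the Twist1 and Twist2 peaks overlapped a peak of the JMJD3 list. The overlap was 450 bp at Twist1 and 118 bp at Twist2, so neither reached 50% of the peak. Within their own lists, of 5376 and 4878 peaks, the Twist2 peaks stood at 99.1% with FLAG and 18.5% with JMJD3, and the Twist1 peaks at 69.1% and 51.3%, values that are given side by side and not as a measured change. The JMJD3-minus-FLAG difference in the number of marked genes was thus -2, 0, 1 and -1 in the 4 pairs. In the KO day 10 pair the sign turned, to 1 with the better-scoring 50% of each list and to 2 with all lists at 3045 peaks. The WT day 5 difference was -1 under both restrictions, and the WT day 10 difference was 0 with the better-scoring 50%.

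Within 50 kb of the 7 genes, each MEF library had 1 peak in all, the one nearest to Ferd3l. This count and those below are totals over 7 genes, whereas the means over all protein-coding genes are per single gene. By the same rule that mean was 0.821 in WT and 0.506 in KO MEFs, so 1 peak over 7 genes was fewer per gene than either. In WT cells the FLAG and JMJD3 lists held 4 and 3 such peaks at day 5, and 5 and 2 at day 10. Over all genes the WT mean was 0.721 with FLAG against 0.562 with JMJD3 at day 5, then 0.574 against 0.342 at day 10. In KO cells they held 2 and 3 at day 5, and 7 each at day 10. Over all genes the KO mean was 0.639 with FLAG against 0.722 with JMJD3 at day 5, then 0.606 against 0.542 at day 10. In the WT pairs and the KO day 5 pair the count at the 7 genes and the mean over all genes thus differed in the same direction, and in the KO day 10 pair the count was equal. Per gene, with the Ferd3l peaks included, the 7 genes lay above the mean in D10 WT FLAG and both D10 KO libraries. They lay below it in all other libraries. Without the peaks nearest to Ferd3l the counts were 0 in both MEF libraries, 3 and 1 at day 5 and 4 and 1 at day 10 in WT cells, and 1 and 2 at day 5 and 6 and 5 at day 10 in KO cells, with FLAG and JMJD3 respectively. The WT day 10 JMJD3 list was also the shortest, with 3045 peaks against 5131 in its FLAG partner, and the part of list length in these counts was not tested.

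Among other genes of the transition, the lists differed in MEFs. Of 20 epithelial targets and opposing factors, 15 had a start-site peak in WT and 14 in KO MEFs, and of 20 other EMT transcription regulators 8 did in each. Of 13 TGF-beta pathway genes none did in either, and of 20 mesenchymal target genes 1 did in WT and 0 in KO. Over all protein-coding genes the share was 14.6% in WT and 10.3% in KO MEFs. The TGF-beta and mesenchymal lists stood below that share by only a few genes, and the epithelial and other EMT lists above it. At day 10 with FLAG the mesenchymal targets had 4 in WT and 3 in KO and the TGF-beta genes 3 and 1, while the epithelial list stood at 12 in both. With JMJD3 at day 10 the mesenchymal targets had 2 in WT and 8 in KO cells, and the TGF-beta genes 3 and 2. The epithelial list was lower with JMJD3 than with FLAG in all 4 pairs, at 10 against 14 and 11 against 14 at day 5 and at 7 and 10 against 12 at day 10, in WT and KO cells respectively. The share of all protein-coding genes was also lower with JMJD3 in all 4 pairs, at 11.0% against 14.7% and 13.0% against 13.7% at day 5 and at 8.26% against 12.1% and 11.7% against 12.8% at day 10. The epithelial list was chosen with earlier results of these data known, and holds genes that the paper reports as activated by JMJD3. Genes of these lists whose state differed between FLAG and JMJD3 in at least 3 pairs included Dsp, which encodes the desmosome protein desmoplakin (4 of 4 pairs), and Esrp2, an epithelial splicing regulator (3 of 4). Both belong to the epithelial list, and in each of those pairs the peak was present with FLAG and absent with JMJD3.

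**Figure D5:**
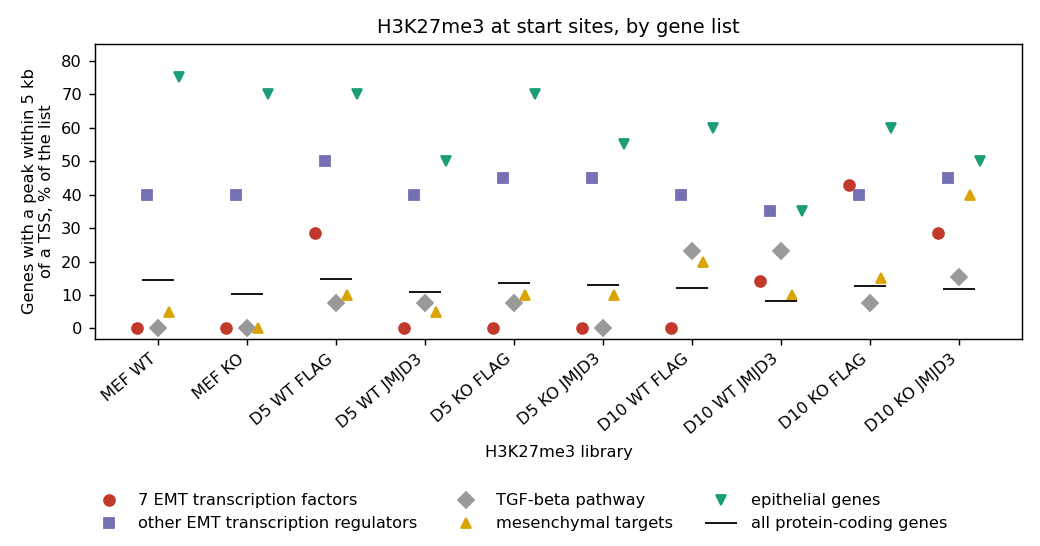
Percent of genes with an H3K27me3 peak within 5 kb of a start site (y axis) in the 10 libraries (x axis) for the 7 EMT transcription factors, 4 other gene lists and all protein-coding genes (bars). The epithelial genes stand highest in WT MEFs at 75.0%, and the 7 factors run from 0% in both MEF libraries to 42.9% in D10 KO FLAG.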

How the data were processed

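The lists of 14 of 20 samples were used. The 2 H3K27ac and 4 input samples were left out as not used here. Sample labels gave the groups, each of 1 library. According to the methods, the authors mapped reads to mm10 with bowtie2 (2.2.0 in the labels) and ran DFilter on each H3K27me3 library and MACS2 on each KLF4 or JMJD3 library. Whether the Drosophila spike-in was used in calling was not given. The deposited H3K27me3 lists hold 1000 bp intervals with the peak caller's score, which served here for ranks only. KLF4 lists hold intervals and JMJD3 lists 1 bp positions. Read numbers of the libraries were not used here, and the lists themselves hold no depth.

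A gene was marked when a peak came within 5 kb of any GENCODE M21 basic start, by at least 1 bp. KLF4 and JMJD3 were placed by midpoint within 50 kb, and were paired at 400 bp, the distance at which the study merged summits. Words were searched on both strands of 200 bp windows. RefSeq promoters were found for 5 of the 7 genes. All 7 genes are named, and genes of other lists where FLAG and JMJD3 differed in at least 3 of 4 pairs. A result under this rule is not reported here. Members and lists were chosen with earlier results of these data known. No test was made. Alternatives changed distance, start, list length, flank and overlap. Python 3.11.15, numpy 2.4.6, pysam 0.24.0, samtools 1.23.1, bedtools 2.31.1 and matplotlib 3.10.9 were used. Counting was tested on simulated data and checked against bedtools.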

Additional observations from a re-analysis of the deposited data

Results flagged for a closer look

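The difference in the number of marked genes between JMJD3 and FLAG had opposite signs in pairs of libraries. At day 10 it was 1 in WT cells (Twist2 with JMJD3 alone) and -1 in KO cells (Snai1 with FLAG alone). In WT cells it was -2 at day 5 (Snai1 and Twist2 with FLAG alone) and 1 at day 10. The day 10 contrast did not hold at equal list length. With all lists at 3045 peaks the differences were 1 in WT and 2 in KO cells, and with the better-scoring 50% of each list 0 and 1. With 1 library per group these differences were not tested.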

How the results depend on the processing

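Of 111 values under 11 alternatives for 25 results, 87 kept their value or stayed within 1.5 times it. Many of these were counts of 0 and differences between them. A count of 0 cannot change when a list is cut, the distance shortened or fewer starts used, so this tally is no measure of stability. With the better-scoring 50% of each list, the marked genes numbered 1 in D5 WT FLAG, 0 in D10 WT JMJD3, 0 in D10 KO FLAG and 1 in D10 KO JMJD3. JMJD3 minus FLAG was then -1 at D5 WT, 0 at D10 WT and, reversed, 1 at D10 KO. With all lists at 3045 peaks, D5 WT FLAG had 1 and D10 KO FLAG 0 genes, and the difference was -1 at D5 WT and, reversed, 2 at D10 KO. Under both, day 10 minus MEF in KO cells was 0, and KO minus WT with FLAG was -1 at day 5 and 0 at day 10. The day 10 KO FLAG result thus rested on its low-ranking peaks. At 1 kb, D10 KO JMJD3 had 1 gene and the D10 KO difference was -2. A flank of 10 kb left 2 genes with KLF4 in FLAG and 3 in JMJD3 cells, and the wider 50% of each KLF4 list left 2 in both. At an overlap of at least 50%, 0% of the D10 KO FLAG peaks had a JMJD3 counterpart, against 66.7%. The other alternatives moved no count beyond 1.5 times.

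The 4 pairs of JMJD3 and FLAG libraries differ in day and genotype, and no test over them was made. A peak list gives no level below its threshold, so a gene without a peak is not shown to lack the mark. Without replicates within a group, no difference can be set against the spread between libraries.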
